A study of Mus musculus with 11 samples.

Results

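The mitosis genes described here are 38 listed mouse genes, from the kinase Cdk1 and its cyclins to the anillin gene Anln, which encode the machinery of chromosome segregation and cell division. They were listed by name and not picked by their own values, though earlier results of these data were known when the list was made. Each name was matched through its Ensembl identifier in GENCODE for GRCm38, and all 38 were found among the 39179 genes of the deposited table. All 38 also passed the filter on low values, a mean of 10 or more normalized counts, which left 15781 genes for testing. Of the members, 4 lie on chromosome 11 and 34 on other chromosomes. The chromosome 11 members Top2a, Aurkb, Birc5 and Pttg1 are described apart, because genes of that chromosome as a group differed in level between the genotypes.

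RNA was measured in C57BL/6 mouse cells of the WT genotype and in cells labelled Mettl3-KO (KO), which lack the catalytic subunit of the N6-methyladenosine writer complex by label. Embryonic stem cells (ESCs) were held in serum-free N2B27 medium with LIF and the inhibitors CHIR99021 and PD0325901. Embryoid bodies (EBs) were ESC aggregates cultured on a surface that does not hold cells, in serum medium, over 8 to 21 days, and the labels do not give the day of each library. ESCs had 3 libraries per genotype, replicates A, B and C, and EBs had 2, replicates A and B, which the submitters call biological replicates without naming separate clones, so p-values measure the spread between these libraries only. Mettl3 itself, which checks the labels, stood at 422, 392 and 425 normalized counts in WT ESCs and 399 and 368 in WT EBs. It stood at 138, 133 and 131 in KO ESCs and 154 and 147 in KO EBs, so every KO library lay below every WT library, and the targeted exons are not given in the sources used here.

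Cells enter mitosis when Cdk1, bound to cyclin B, is activated by Cdc25 phosphatases, which remove the inhibitory phosphates set by Wee1. Polo and Aurora kinases then build the spindle, the spindle checkpoint holds anaphase until chromosomes are attached, and the anaphase-promoting complex with Cdc20 destroys securin and the cyclins. Most genes of this programme are transcribed in late S phase and G2 through promoters that carry CCAAT boxes, bound by NF-Y, and a cell cycle homology region with the core TTTGAA, bound by MuvB complexes with B-Myb or FoxM1. Naive ESCs divide fast with short gap phases, and proliferation usually slows as they differentiate. In bulk RNA, fewer cells in mitosis and less of a transcript per cell cannot be told apart.

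The bases just before the annotated start are shown for 5 members that the results below turn on, from RefSeq for GRCm38.p6, 5′ to 3′ on the gene's strand. Capitals mark CCAAT or its reverse complement ATTGG, and TTTGAA or its reverse complement TTCAAA. Cdc20 had the highest level per length and the largest difference in EBs, Cdk1 is the central kinase, Top2a and Bub1 had the next largest differences in ESCs after Cdc25c, and Cdc25b went the other way.
Cdc20, chr4:118437344-118437443, minus strand: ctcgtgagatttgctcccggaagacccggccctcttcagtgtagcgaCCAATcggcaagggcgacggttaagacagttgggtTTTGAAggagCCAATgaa
Cdk1, chr10:69352913-69353012, minus strand: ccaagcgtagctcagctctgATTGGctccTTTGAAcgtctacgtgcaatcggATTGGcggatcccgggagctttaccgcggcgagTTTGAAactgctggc
Top2a, chr11:99024190-99024339, minus strand: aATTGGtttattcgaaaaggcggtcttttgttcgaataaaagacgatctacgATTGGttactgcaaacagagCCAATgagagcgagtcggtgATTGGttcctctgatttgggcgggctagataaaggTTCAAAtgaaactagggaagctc
Bub1, chr2:127831860-127831959, minus strand: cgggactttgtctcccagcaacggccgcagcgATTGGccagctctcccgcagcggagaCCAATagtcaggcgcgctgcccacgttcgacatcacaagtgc
Cdc25b, chr2:131186848-131186947, plus strand: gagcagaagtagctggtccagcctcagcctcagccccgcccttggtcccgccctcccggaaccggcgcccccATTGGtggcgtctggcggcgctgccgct
Cdc20, Cdk1 and Top2a held both motifs in the bases shown, while Bub1 and Cdc25b held CCAAT without TTTGAA.

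A promoter window of 250 bases before to 50 after the start was on hand for 31 of the 38 members. Ccna2, Cdc25c, Wee1, Aurkb, Incenp, Tpx2 and Kif20a had none. TTTGAA on either strand was in the windows of 21 of the 31 members (67.7%), against 20.2% of all 27025 genes in the RefSeq promoter set. That set was not limited to genes of the deposited count table or to genes tested here. CCAAT on either strand was in 23 (74.2%), against 41.1%. Both motifs, whose ends can share 1 letter, were in 19 (61.3%), against 7.97%. By windows instead of genes, TTTGAA was in 69.7% of 33 member windows and 17.9% of all 32851. The motif did not part the members by their difference between KO and WT cells. The median log2 difference was -0.46 in ESCs and -0.39 in EBs for the 21 members with TTTGAA. For the 10 without it the medians were -0.37 and -0.47. These are descriptions, and a match is not a bound site.

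Transcript levels were compared between members per length, as RPKM (reads per kilobase of exon, scaled to the reads in genes), averaged over the 10 libraries. Cdc20, the activator of the anaphase-promoting complex, was highest at 123. Top2a, the topoisomerase that untangles sister chromatids, followed at 93.7, then the cyclin Ccnb2 at 73.1, the spindle kinase Aurka at 63.8, the checkpoint kinase-like protein Bub1b at 57.5 and the midzone motor Kif20a at 54.2. The lowest were the phosphatases Cdc25c at 4.23 and Cdc25b at 5.85, followed by the kinetochore subunits Nuf2 at 6.28 and Ndc80 at 6.46. No member in any library rested on fewer than 38 reads, the count of Cdc25c in its poorest library. All other levels below are the deposited normalized counts (reads divided by a size factor of the library), which compare libraries and not genes.

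Before the comparisons, the replicate C libraries need a word, since they stood apart from A and B in both genotypes. The labels tie replicate C to a SILAC assay of proteins. Its libraries held 3026837 and 3075007 reads in genes, against 8523027 to 15426894 in the other 8, and 3 reads there corresponded to 8.33 to 9.88 normalized counts, against 1.63 to 2.72. Replication-dependent histone genes took up 0.00208% and 0.00312% of its reads in genes, against 1.13% to 1.88% elsewhere, and processed pseudogenes 0.249% and 0.116%, against 3.71% to 4.61%. A list of 10 fibroblast or feeder markers summed to 250.3 and 242 normalized counts in replicate C, with 7 of the 10 at 3 reads or more, and to 7189 to 12045 in ESC replicates A and B. The pluripotency gene Pou5f1 stood at 8389 to 28269 in ESCs, highest in replicate C, and at 4035 to 5876 in EBs. The values below are therefore given for all libraries, with the replicate letter as a block, and without replicate C.

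Taken over the whole list, most mitosis transcripts were at lower levels in KO than in WT cells, in ESCs and in EBs. The median amount was modest, and it varied between members. Of the reads assigned to genes, the members took 0.595%, 0.672% and 0.641% in WT ESCs, replicates A, B and C, and 0.418%, 0.470% and 0.605% in KO ESCs. In EBs they took 0.552% and 0.624% in WT and 0.432% and 0.490% in KO. KO lay below WT in each of the 5 letter pairs, and the C pair differed least. These shares include the chromosome 11 members. Without Top2a the members' normalized counts summed to 43232, 45491 and 57569 in WT ESCs and 31086, 32889 and 47054 in KO ESCs. In EBs the sums without Top2a were 36802 and 39062 in WT and 27626 and 29742 in KO, so KO was again lower in each pair. The median log2 difference of the 38 members (KO against WT, on log2 of the normalized count plus 1) was -0.44 in ESCs and -0.46 in EBs, where 0 is no difference. Over all 15781 tested genes it was -0.02 in both. The difference was below 0 for 34 of 38 members (89.5%) in each state, against 51.4% and 51.2% of all genes. Single members ran from -1.33 to 0.68 in ESCs and from -1.40 to 0.92 in EBs. The median over the 34 members off chromosome 11 was -0.44 in ESCs and -0.42 in EBs.

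Letter by letter the medians were close to each other: -0.49, -0.50 and -0.38 in ESC pairs A, B and C, and -0.45 and -0.49 in EB pairs A and B. In the C pair 29 of 38 members were lower in KO, against 33 or 34 in the others. KO was below WT in every ESC pair for 26 members (27.8% of all genes tested), in every EB pair for 33 (45.6% of all genes), and in all 5 pairs for 24 (18.9% of all genes). Cdc25b was the 1 member above WT in all 5 pairs, as were 16.7% of all genes. These shares of members were above the background in the lower direction and below it in the higher.

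**Figure D1:**
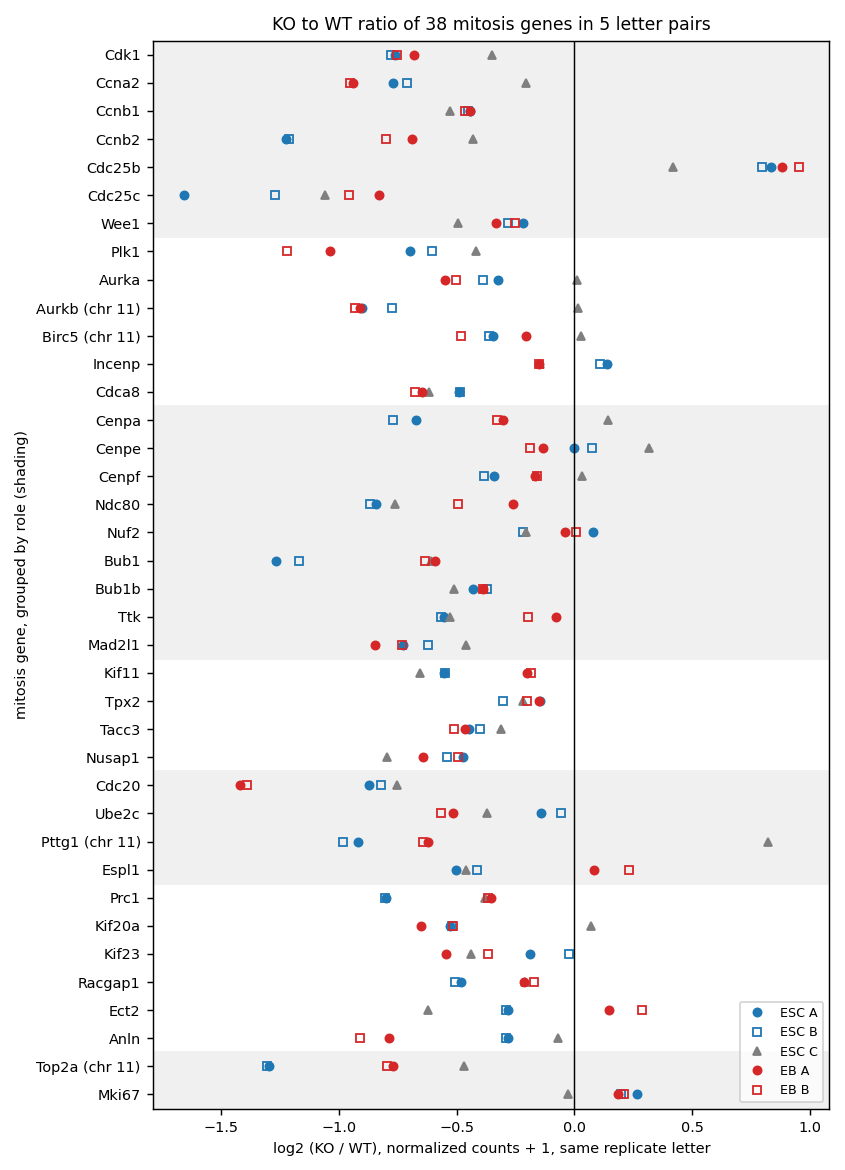
Log2 ratio of KO to WT normalized counts (plus 1) on the horizontal axis for each of the 38 mitosis genes on the vertical axis, grouped by role with shading; each symbol is 1 replicate letter pair of ESCs or EBs. Most symbols lie between -1 and 0, Cdc25b lies right of 0 in all 5 pairs, Mki67 in 4 of them, and the gray symbols of the C pair often lie nearer 0.

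In KO against WT ESCs, 1 member passed the test, the phosphatase gene Cdc25c, which was lower. Of all genes, 2.38% were called in either direction and 1.07% in the lower one, so 1 of 38 was near the background. At an unadjusted p under 0.05 there were 16 members, 15 of them lower, and 17.2% of all genes in either direction. The replicate letters were taken to pair the ESC libraries, which rests mostly on replicate C, since unlike letters A and B correlated nearly as well as like ones. With the letter as a block 21 members were lower and 1 higher, while 15.3% of all genes were lower and 14% higher. Without the replicate C libraries 27 members were lower and 1 higher, against 27.8% and 27.4% of all genes. In groups that did not overlap, 12 members had all KO below all WT libraries (8.78% of all genes) and 1 all above (9.23%). edgeR called 1 member (2.39% of all genes) and DESeq2 9 (12.4%), 8 of them lower.

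In KO against WT EBs no member passed the limma test, where 1.84% of all genes did. At an unadjusted p under 0.05 there were 10 members, 9 of them lower, and 13.9% of all genes in either direction. edgeR called 0 (1.83% of all genes) and DESeq2 6 (9.83%). With the letter as a block 15 members were lower and 1 higher, against 13.4% and 9.27% of all genes. Whether the letters pair the EBs could not be decided from 2 pairs. Without the replicate C libraries, which enter the EB comparison only through the shared spread, 23 members were lower and 1 higher, against 27.9% and 24.1% of all genes. Both KO EBs lay below both WT EBs for 28 members (38.9% of all genes) and above for 3, namely Cdc25b, Espl1 and Ect2 (36% of all genes).

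Cyclin-dependent kinase, its cyclins and its switches held the widest span of differences among the role groups in both states. Of these 7 members 6 had a difference below 0 in both states, with medians of -0.56 in ESCs and -0.72 in EBs. Cdc25c (ENSMUSG00000044201, chr18:34732993-34751533, as all positions here in GRCm38) stood at 256, 282 and 221 normalized counts in WT ESCs and 80.5, 116 and 106 in KO ESCs. In EBs it stood at 208 and 237 in WT and 117 and 121 in KO, so the genotypes did not overlap in either state. The log2 difference was -1.33 in ESCs (standard error 0.21, adjusted p 0.030, and 0.005 with the block) and -0.89 in EBs (standard error 0.25, adjusted p 0.145, and 0.027 with the block). Leaving out any of the 8 libraries of replicates A and B ended the ESC call, with adjusted p 0.097 to 0.149, while leaving out a replicate C library did not. It was also lost when only the ESC groups were fitted (adjusted p 0.314) or without the filter on low values (0.076). Of its exon length 12.7% lies under Gm3550 on the opposite strand, and these libraries are not stranded, so its level is uncertain.

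Cdc25b (ENSMUSG00000027330, chr2:131186949-131198497), the phosphatase that starts Cdk1 activation at the centrosome, lay the other way. Its normalized counts were 121, 114 and 191 in WT ESCs and 217, 199.8 and 256 in KO ESCs, then 126 and 114 in WT EBs and 232 and 221 in KO EBs. Every KO library lay above every WT library, with replicate C highest in each ESC group. The log2 difference was 0.68 in ESCs (standard error 0.24, adjusted p 0.188) and 0.92 in EBs (standard error 0.29, adjusted p 0.195). With the block the adjusted p was 0.017 in each, and without replicate C it was 0.000320 and 0.000185.

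Ccnb2 (ENSMUSG00000032218, chr9:70407692-70421547), a B-type cyclin, stood at 1196, 1204 and 1403 in WT ESCs and 512, 519 and 1042 in KO ESCs. In EBs it stood at 1083 and 1129 in WT and 670.2 and 649 in KO, so again no KO library reached a WT library of its state. The log2 difference was -0.96 in ESCs (standard error 0.27, adjusted p 0.118, and 0.017 with the block) and -0.75 in EBs (standard error 0.33, adjusted p 0.385, and 0.067 with the block). Ccna2, the cyclin of S phase and mitotic entry, was 1359, 1414 and 2968 in WT ESCs, 797, 863 and 2575 in KO ESCs, 1305 and 1432 in WT EBs and 679 and 739.5 in KO EBs. Within each letter KO was lower, but KO ESC replicate C lay above WT replicates A and B. Its difference was -0.56 in ESCs (standard error 0.49, adjusted p 0.688, and 0.029 with the block) and -0.95 in EBs (standard error 0.60, adjusted p 0.608, and 0.016 with the block). With 1 library left out its ESC value ran from -1.11 to -0.20. Exons of Exosc9 on the other strand cover 12.5% of its exon length, which leaves its level uncertain too.

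Cdk1 had differences of -0.63 in ESCs and -0.72 in EBs (adjusted p 0.523 and 0.665, and 0.014 and 0.021 with the block), and its KO to WT ratios in the 5 pairs ran from -0.78 to -0.35. Leaving out 1 library moved its ESC value between -1.07 and -0.33. Ccnb1, cyclin B1, had -0.47 and -0.45 (adjusted p 0.886 and 1.000, and 0.008 and 0.017 with the block), with pair ratios between -0.53 and -0.44. Leaving out WT ESC replicate C alone turned its ESC value to 0.21. Wee1, the kinase that opposes Cdc25, had -0.33 and -0.29 (adjusted p 0.667 and 0.914), and passed with the block in neither state (0.053 and 0.134).

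Processed copies bear on the level of Ccnb1. A search of GENCODE pseudogenes for shared stretches of 50 bases, added after the data were seen, found copies in the table for this member only, where at least 20% of a copy's stretches were shared. Ccnb1-ps stood at 1092 and 988 normalized counts in WT ESC replicates A and B, 658 and 635 in KO ESCs, 913 and 869 in WT EBs, and 513 and 559 in KO EBs. It was listed at 0 in both replicate C libraries, and a second copy, Gm12856, at 6.59 and 0 there. Ccnb1 itself was 678, 814 and 3096 in WT ESCs, 498, 596 and 2147 in KO ESCs, 586 and 665 in WT EBs and 431 and 481 in KO EBs. With the reads of both copies added, Ccnb1 came to 2060.2, 2071 and 3103 in WT ESCs and 1329, 1395 and 2147 in KO ESCs. The KO to WT ratio of this sum was -0.63, -0.57 and -0.53 in the ESC pairs and -0.65 and -0.60 in the EB pairs, so KO was lower with and without the copies.

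Polo and Aurora kinases and the chromosomal passenger complex, which together order the spindle and correct faulty attachments, had medians of -0.38 in ESCs and -0.59 in EBs over 6 members. Plk1 (ENSMUSG00000030867, chr7:122159439-122169873) stood at 881, 760.3 and 1271 normalized counts in WT ESCs and 544, 499 and 953 in KO ESCs. In EBs it stood at 786 and 795 in WT and 383 and 340.5 in KO. The KO EBs were the lowest of all 10 libraries for this gene. The difference was -0.57 in ESCs (standard error 0.29, adjusted p 0.382, and 0.010 with the block) and -1.13 in EBs (standard error 0.35, adjusted p 0.187, and 0.005 with the block).

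Aurka was 1554, 1655 and 1969.8 in WT ESCs and 1241, 1265 and 1983 in KO ESCs, then 1119 and 1207 in WT EBs and 764 and 851 in KO EBs. Its C pair had a ratio of 0.01, while the other pairs lay between -0.55 and -0.32. The log2 difference was -0.23 in ESCs (adjusted p 0.705, and 0.128 with the block) and -0.53 in EBs (adjusted p 0.440, and 0.034 with the block). With 1 library left out the ESC value ran from -0.45 to -0.12. Cdca8, borealin of the passenger complex, had -0.53 and -0.66 (adjusted p 0.483 and 0.564, and 0.006 and 0.008 with the block). Incenp, the scaffold of the same complex, had 0.04 in ESCs and -0.15 in EBs, and passed with the block in neither.

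Centromere, kinetochore and checkpoint members had medians of -0.44 in ESCs and -0.32 in EBs over 9 genes. Bub1 (ENSMUSG00000027379, chr2:127801122-127831865), a kinase that recruits checkpoint proteins to kinetochores, stood at 1431, 1772 and 1611 in WT ESCs and 594, 788 and 1055 in KO ESCs. In EBs it was 1100.2 and 1462 in WT and 729.6 and 942 in KO. Genotypes did not overlap in either state. The difference was -1.01 in ESCs (standard error 0.24, adjusted p 0.077, and 0.009 with the block) and -0.61 in EBs (standard error 0.30, adjusted p 0.434, and 0.062 with the block).

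Bub1b, which encodes the checkpoint protein BubR1, was 2622, 2714 and 2092 in WT ESCs, 1942, 2099 and 1469 in KO ESCs, 2090.1 and 2149 in WT EBs and 1598 and 1644 in KO EBs. KO was lower within each letter by nearly the same amount, with ratios from -0.51 to -0.37. The difference was -0.44 in ESCs and -0.39 in EBs (adjusted p 0.265 and 0.539, and 0.008 and 0.022 with the block). Mad2l1, the checkpoint protein Mad2, had -0.60 and -0.79 (block adjusted p 0.009 and 0.010), though leaving out WT ESC replicate C alone turned the ESC value to 0.056. Ndc80, which binds microtubules, had -0.82 and -0.38 (0.005 and 0.061). Ttk, the kinase Mps1, had -0.55 and -0.14 (0.007 and 0.314).

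Cenpe, a kinetochore motor, overlapped between the genotypes. Its normalized counts were 948, 1128 and 787 in WT ESCs, 947, 1189 and 980.4 in KO ESCs, 1036 and 1225 in WT EBs and 945 and 1076 in KO EBs. The difference was 0.13 in ESCs and -0.16 in EBs (adjusted p 0.870 and 0.960). Nuf2, the partner of Ndc80, had -0.11 and -0.02, and Cenpf, a large outer kinetochore protein, had -0.23 and -0.16. Cenpa, the histone H3 variant of centromeres, had -0.43 and -0.32, with a C pair ratio of 0.14 against -0.67 and -0.77 in ESC pairs A and B. None of these 4 passed with the block in either state.

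Among spindle motors and microtubule proteins, all 4 members had differences below 0 in both states. The motor Kif11, which pushes spindle poles apart, had -0.59 in ESCs and -0.19 in EBs (block adjusted p 0.005 and 0.125). Nusap1, which bundles spindle microtubules, had -0.60 and -0.57 (0.011 and 0.026), and Tacc3, which crosslinks spindle fibres with clathrin, had -0.39 and -0.49 (0.012 and 0.014). Tpx2, the activator of Aurora A on microtubules, had -0.22 and -0.18 (0.051 and 0.163).

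Anaphase and protein destruction genes had medians of -0.41 in ESCs and -0.59 in EBs over 4 members. Cdc20 (ENSMUSG00000006398, chr4:118432901-118437352) stood at 2608, 2104 and 3745 in WT ESCs and 1423, 1189.7 and 2222 in KO ESCs. In EBs it stood at 2564 and 2032 in WT, close to WT ESC replicates A and B, and at 958 and 775 in KO, the lowest of all libraries. The log2 difference was -0.82 in ESCs (standard error 0.30, adjusted p 0.208, and 0.004 with the block) and -1.40 in EBs (standard error 0.36, adjusted p 0.114, and 0.002 with the block). Ube2c, the ubiquitin-conjugating enzyme of the anaphase-promoting complex, had -0.19 in ESCs and -0.54 in EBs (block adjusted p 0.153 and 0.023). Its exons overlap Tnnc2 on the other strand over 22.8% of their length, so its level is uncertain.

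Espl1 (ENSMUSG00000058290, chr15:102296266-102324357), separase, which cleaves cohesin, parted the states. It was 1712, 1633 and 1291 in WT ESCs and 1208, 1227 and 939 in KO ESCs, all lower, but 1313 and 1212 in WT EBs and 1391 and 1421 in KO EBs, all higher. The difference was -0.46 in ESCs (standard error 0.17, adjusted p 0.215, and 0.009 with the block) and 0.16 in EBs (standard error 0.21, adjusted p 0.950, and 0.214 with the block).

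Midzone and cytokinesis genes had medians of -0.36 in ESCs and -0.41 in EBs over 6 members. Kif20a, a motor that carries the passenger complex to the midzone, stood at 2409, 2509 and 2533 in WT ESCs, 1668, 1751 and 2664 in KO ESCs, 1804 and 1927 in WT EBs and 1146 and 1347 in KO EBs. KO ESC replicate C was above all WT ESCs, while the other KO libraries lay below their WT pairs. The difference was -0.33 in ESCs and -0.58 in EBs (adjusted p 0.489 and 0.336, and 0.140 and 0.066 with the block), and 29.3% of its exon length overlaps Cdc23 on the other strand, which makes the level uncertain.

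Anln (ENSMUSG00000036777, chr9:22332012-22389188), anillin, which crosslinks the contractile ring, was 1346, 1465 and 1100.2 in WT ESCs and 1105, 1199 and 1047 in KO ESCs. In EBs it was 986 and 1137 in WT and 571 and 605 in KO, below every other library. The difference was -0.21 in ESCs (standard error 0.15, adjusted p 0.587, and 0.093 with the block) and -0.85 in EBs (standard error 0.19, adjusted p 0.075, and 0.006 with the block). Ect2, the exchange factor that activates RhoA at the midzone, was 1438, 1596 and 1733 in WT ESCs, 1181, 1304 and 1125 in KO ESCs, 1172 and 1276 in WT EBs and 1299.5 and 1555 in KO EBs. Like Espl1 it lay lower in all KO ESCs and higher in both KO EBs, with differences of -0.40 (adjusted p 0.202, and 0.032 with the block) and 0.22 (0.756, and 0.231 with the block).

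Prc1, the bundler of midzone microtubules, had -0.66 in ESCs and -0.36 in EBs (block adjusted p 0.012 and 0.107), and its exons overlap Rccd1 on the other strand over 11.1%, so it is uncertain. Racgap1, a subunit of centralspindlin, had -0.40 and -0.19 (0.023 and 0.234), and its partner Kif23 had -0.22 and -0.46 (0.175 and 0.058).

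Mki67 (ENSMUSG00000031004, chr7:135689784-135716361), whose protein Ki-67 coats mitotic chromosomes and serves as the standard marker of proliferation, did not share the lower levels. It stood at 1398, 1576 and 1993 in WT ESCs, 1681, 1809 and 1958 in KO ESCs, 1692 and 1997 in WT EBs and 1922 and 2310.2 in KO EBs. KO was higher in 4 of the 5 pairs and the groups overlapped. The difference was 0.15 in ESCs and 0.20 in EBs (standard errors 0.18 and 0.22, adjusted p 0.823 and 0.899, and 0.212 and 0.199 with the block).

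**Figure D2:**
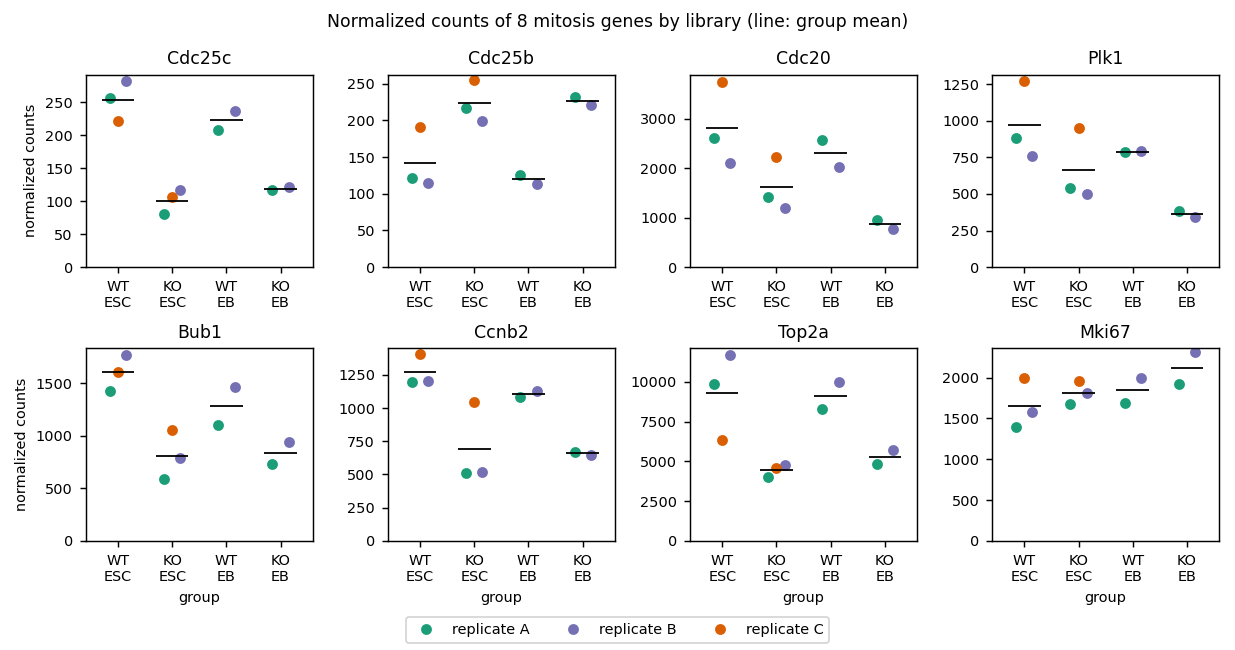
Normalized counts on the vertical axis for 8 mitosis genes in WT and KO ESCs and EBs on the horizontal axis; each point is a library, colored by replicate letter, and the line is the group mean. Cdc25c, Bub1 and Ccnb2 lie lower in all KO libraries of each state, Cdc25b lies higher, and Mki67 overlaps.

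The 4 members on chromosome 11 sit on a chromosome that differed as a whole. The median KO to WT ratio of its 1344 tested genes was -0.31, -0.33 and -0.03 in ESC pairs A, B and C and -0.45 and -0.46 in EB pairs A and B, while genes on other chromosomes had medians between 0.00 and 0.02. Top2a (ENSMUSG00000020914, chr11:98992943-99024189) stood at 9869, 11702 and 6344 normalized counts in WT ESCs, 4022, 4739 and 4577 in KO ESCs, 8268 and 9961 in WT EBs and 4851 and 5733 in KO EBs. The genotypes did not overlap in either state. Its difference was -1.02 in ESCs (standard error 0.24, adjusted p 0.073, and 0.016 with the block) and -0.78 in EBs (standard error 0.29, adjusted p 0.279, and 0.062 with the block). Taken relative to the median of its chromosome the values were -0.79 and -0.34.

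Aurkb (ENSMUSG00000020897, chr11:69045647-69051664), the kinase of the passenger complex, was 1253, 1085 and 761 in WT ESCs, 671, 635 and 769 in KO ESCs, 1177 and 1031 in WT EBs and 626 and 540.0 in KO EBs. The A and B pairs of both states had ratios between -0.93 and -0.77, and the ESC C pair 0.02. Its difference was -0.55 in ESCs (adjusted p 0.220, and 0.088 with the block) and -0.92 in EBs (0.132, and 0.047 with the block), or -0.32 and -0.48 relative to its chromosome.

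Birc5 (ENSMUSG00000017716, chr11:117849251-117855743), survivin of the same complex, was 935, 826 and 2135 in WT ESCs, 736, 642 and 2177 in KO ESCs, 799.9 and 731 in WT EBs and 694 and 523 in KO EBs. Its differences of -0.23 and -0.34 (adjusted p 0.964 and 1.000, and 0.186 and 0.136 with the block) came to 0.01 and 0.10 relative to the chromosome. Leaving out WT replicate C, KO replicate A or KO replicate B turned its ESC value to 0.20, 0.0016 or 0.10. Pttg1 (ENSMUSG00000020415, chr11:43420250-43426251), securin, which holds separase inactive, was 1000, 997 and 362 in WT ESCs, 529, 504 and 642 in KO ESCs, 618 and 618 in WT EBs and 401 and 396 in KO EBs. Replicate C reversed the order, with a ratio of 0.82 against -0.92 and -0.98 in pairs A and B. The difference was -0.36 in ESCs (standard error 0.38, adjusted p 0.774), and without replicate C it was -0.95 (standard error 0.07, adjusted p 1.48e-05). In EBs it was -0.63 (standard error 0.46, adjusted p 0.699), with standard error 0.07 and adjusted p 0.000134 once replicate C was left out of the shared spread. Relative to its chromosome Pttg1 had -0.13 in ESCs and -0.19 in EBs, and -0.63 in ESCs without replicate C.

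**Figure D3:**
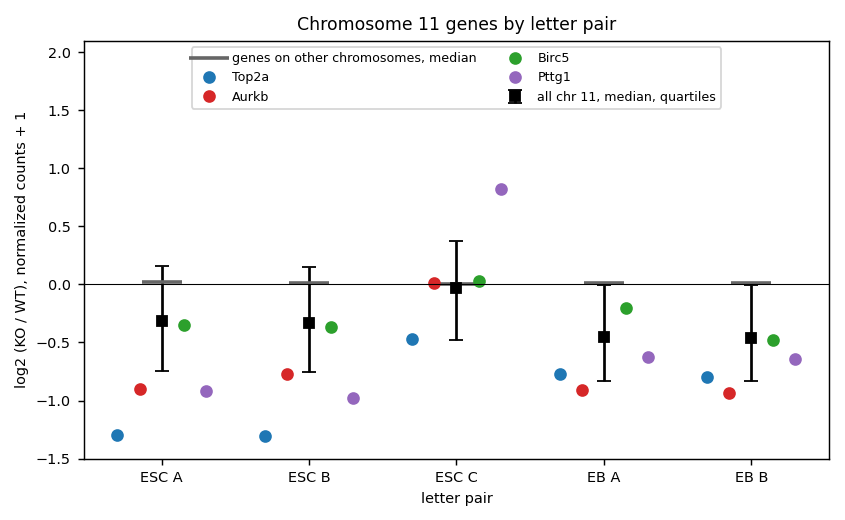
Log2 ratio of KO to WT normalized counts (plus 1) on the vertical axis in 5 letter pairs on the horizontal axis; black squares with bars are the median and quartiles of the 1344 tested chromosome 11 genes, gray dashes the median of genes on other chromosomes, and colored points the 4 mitosis genes of chromosome 11. The chromosome median lies between -0.46 and -0.31 in every pair except ESC C, where it is -0.03 and Pttg1 lies at 0.82.

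The comparison of EBs with ESCs is not of differentiation alone, since medium and aggregation differed too. In WT, 32 of 38 members had a difference below 0 and the median was -0.32, against 0.09 over all genes. In KO, 25 of 38 were below 0 and the median was -0.33, against 0.06. The replicate C libraries enter on the ESC side only, and without them the members' medians were -0.24 in WT and -0.15 in KO, against -0.04 and -0.05 over all genes. Then 81.6% of members were below 0 in WT and 60.5% in KO, against 52.7% and 54.0% of all genes.

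None of the members passed limma's test in WT (2.48% of all genes called), with 3 at an unadjusted p under 0.05 (14.5% of all genes), 0 by edgeR (2.93% of all genes) and 2 by DESeq2 (9.66%). In KO none passed either (0.805% of all genes), with 7 at an unadjusted p under 0.05 (13.5% of all genes), 0 by edgeR (1.23%) and 4 by DESeq2 (8.99%). The block here takes each letter as shared by ESCs and EBs, a match that was not checked, and it moves the differences too. With the letter as a block 13 members were lower in WT EBs (14.8% of all genes), and in KO EBs 12 were lower and 2 higher (16.1% and 12% of all genes). Without replicate C, 15 were lower in WT (23.7%), and 12 lower and 2 higher in KO (26% and 21.3%). Both WT EBs lay below all WT ESCs for 15 members (19.4% of all genes) and above for 1 (23.2%), and in KO for 18 (20.5%) and 3 (21.2%).

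Nusap1 had differences of like size in the genotypes, with 720.3, 824 and 1005 in WT ESCs and 444 and 515 in WT EBs, and 519, 567 and 578 in KO ESCs and 285 and 365 in KO EBs. No EB library reached an ESC library of its genotype. The difference was -0.81 in WT (standard error 0.20, adjusted p 0.090, and 0.004 with the block) and -0.78 in KO (standard error 0.20, adjusted p 0.124, and 0.005 with the block). Aurka had -0.56 in WT and -0.86 in KO (adjusted p 0.322 and 0.148, and 0.028 and 0.005 with the block). Anln had -0.92 in KO (standard error 0.17, adjusted p 0.061, and 0.001 with the block) and -0.29 in WT (standard error 0.17, adjusted p 0.530, and 0.015 with the block).

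For Cdc20 and Plk1, WT EBs lay close to WT ESC replicates A and B, and KO EBs below all KO ESCs. Cdc20 had -0.26 in WT and -0.85 in KO (adjusted p 0.763 and 0.315). With the block Cdc20 had -0.02 and -0.61 (adjusted p 0.817 and 0.001). Plk1 had -0.26 and -0.82 (0.761 and 0.321), and -0.01 and -0.57 with the block (0.941 and 0.007). Ndc80 and Mki67 were the 2 members called higher in KO EBs with the block, with adjusted p 0.042 and 0.035, and neither passed without replicate C (0.155 and 0.087). The 2 called higher without replicate C were Ccnb2 and Espl1 (adjusted p 0.003 and 0.039), which did not pass with the block (0.413 and 0.054).

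Summed markers of naive ESCs and of other cell types moved with these comparisons. The 8 endoderm markers summed to 45062 and 45571 in WT EBs against 270 and 279 in KO EBs, with 8 of 8 and 7 of 8 at 3 reads or more, and the fibroblast or feeder list to 3584 and 3578 against 2579 and 2576. In ESC replicates A, B and C the endoderm sums were 1615, 1676 and 774 in WT and 1916, 1989.8 and 430.5 in KO, with 5 to 7 of 8 at 3 reads or more. The 7 mesoderm and cardiac markers summed to 346 and 285 in WT EBs against 70.6 and 70.5 in KO EBs, with 6 of 7 at 3 reads or more. In ESCs they summed to 19.8 to 69.5. There 7, 7 and 1 of the 7 were at 3 reads or more in WT replicates A, B and C, and 3, 3 and 4 in KO. The 5 neural markers summed to 625 and 538 in WT EBs and 870.1 and 689 in KO EBs, and to 570.3 to 1486 in ESCs. The 10 naive ESC markers, all at 3 reads or more, summed to 19855 and 17546 in WT EBs against 32604 and 28253 in KO EBs. In ESCs they summed to 37577, 34333 and 69072 in WT and 53170, 47173 and 42541 in KO, higher in KO in replicates A and B and lower in C. In ESC replicates A and B the fibroblast or feeder list summed to 7189 and 7362 in WT and 11694 and 12045 in KO. The part of these cells in the mitosis values was not tested.

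KO effect here names the difference between KO and WT cells, whatever its cause. Whether it was the same in EBs and in ESCs was tested as the difference of the KO effects. The median over the members was 0.04, with no stable sign: it lay between -0.15 and -0.07 without WT ESC replicate C, KO ESC replicate A or B, WT EB replicate A or KO EB replicate B. No member passed the limma test (0.475% of all genes did). At an unadjusted p under 0.05 there were 2 members (8.55% of all genes), edgeR called 0 (0.646% of all genes) and DESeq2 0 (4.9%). With the block 2 members had a lower effect in EBs, Cdc20 and Anln, and 1 a higher effect, Espl1, against 4.99% and 2.81% of all genes, so the count was near the background. Without replicate C the counts were 3 lower and 6 higher, against 19.9% and 16.3% of all genes.

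Replicate C also differed from A and B in the levels of the mitosis genes. Relative to the mean of A and B, the members' median in replicate C was 0.34 on the log2 scale in WT and 0.54 in KO, against -0.20 over all genes in each. The shift was above 0 in both genotypes for 24 members, below 0 in both for 8 and of opposite sign for 6. Ccnb1 had shifts of 2.06 and 1.98 and Mad2l1 1.98 and 2.19 in WT and KO, the 2 highest in each. Next came Ube2c in WT with 1.58 (1.31 in KO) and Cenpa in KO with 1.74 (0.87 in WT). With its pseudogene copies added, the shift of Ccnb1 was 0.59 and 0.66. Cenpf had -1.08 and -0.68. The chromosome 11 members Pttg1, Top2a and Aurkb had -1.46, -0.76 and -0.62 in WT and 0.31, 0.07 and 0.24 in KO.

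**Figure D4:**
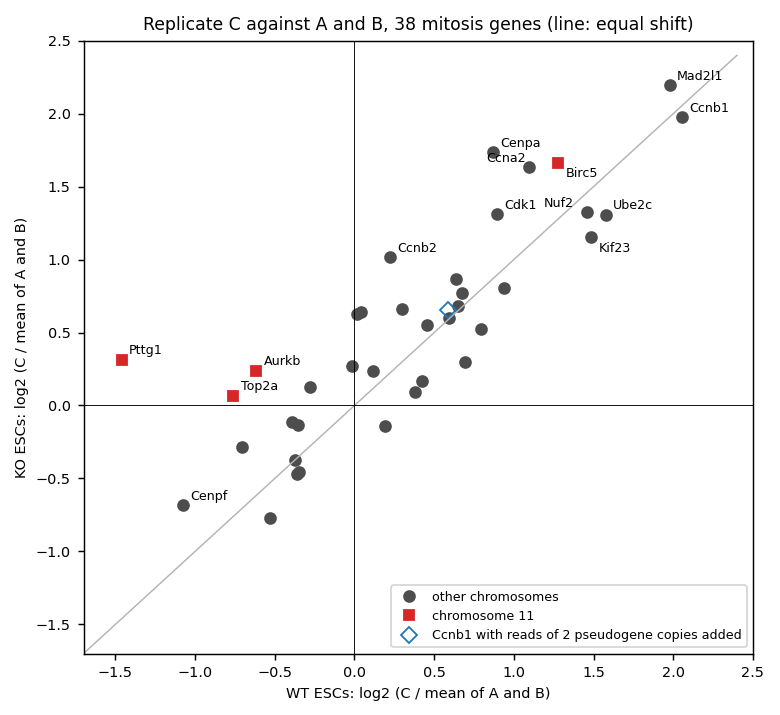
Log2 ratio of replicate C to the mean of replicates A and B in WT ESCs (horizontal axis) and KO ESCs (vertical axis) for the 38 mitosis genes, with chromosome 11 members as red squares and Ccnb1 with its pseudogene reads added as an open diamond. Points run along the line of equal shift from Cenpf at the lower left to Mad2l1 and Ccnb1 at the upper right, and Pttg1, Top2a and Aurkb lie left of 0 in WT and above 0 in KO.

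Other genes of the division machinery were read from 7 lists of 138 genes named by textbook knowledge, all of them tested. For the genes of these lists called in KO against WT ESCs or in KO EBs against KO ESCs, each call ended when any 1 of the 8 libraries of replicates A and B was left out, when only the groups compared were fitted, and without the filter on low values, but held with 1 or both replicate C libraries left out and with the block. The kinetochore and centromere list had medians of -0.42 in ESCs and -0.12 in EBs over 31 genes, and with the block 13 were lower in ESCs and 6 in EBs, with 0 and 1 higher. Over all genes, the block called 15.3% lower and 14% higher in ESCs and 13.4% and 9.27% in EBs, which are the shares to set beside the block counts of all these lists. Cenpo, a subunit of the inner kinetochore, was the 1 gene of this list called by limma. It stood at 365, 377 and 349 in WT ESCs, 201, 204 and 228 in KO ESCs, 356 and 356 in WT EBs and 349 and 339.6 in KO EBs. It was lower in all KO ESCs and nearly level in EBs, with a difference of -0.78 in ESCs (standard error 0.14, adjusted p 0.038, and 0.111 to 0.169 with an A or B library left out), but 19.0% of its exon length lies under Adcy3 on the other strand, so it is uncertain.

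Condensin and cohesin genes had medians of -0.27 and -0.08 over 18 genes. With the block 7 were lower and 1 higher in ESCs, and 2 lower and 0 higher in EBs. Ncapg, a condensin subunit, was called also without the block. It stood at 979, 1235 and 1446 in WT ESCs, 474.5, 557 and 694 in KO ESCs, 802 and 931 in WT EBs and 472 and 550.2 in KO EBs. The difference was -1.08 in ESCs (standard error 0.21, adjusted p 0.046, and 0.114 to 0.181 with an A or B library left out), with 13.4% of its exon length under Lcorl on the other strand, which leaves it uncertain. TMM scaling and edgeR did not call it either (adjusted p 0.056 and 0.059). Other spindle motors and proteins had -0.24 and -0.07 over 26 genes, with none called by limma. With the block 10 were lower and 3 higher in ESCs, and 6 lower and 2 higher in EBs.

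The anaphase-promoting complex had medians of -0.01 in ESCs and -0.17 in EBs over 17 genes, with 0 called between genotypes by limma. With the block 3 were lower and 2 higher in ESCs, and 1 lower and 3 higher in EBs. Anapc10, a substrate-binding subunit, was called lower in KO EBs than in KO ESCs. It was 316, 383 and 383 in KO ESCs and 77.7 and 88.3 in KO EBs, with 167, 197 and 366 in WT ESCs and 113 and 122 in WT EBs. The difference between KO EBs and KO ESCs was -2.10 (standard error 0.33, adjusted p 0.043, and 0.078 to 0.495 with an A or B library left out).

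Entry kinases and phosphatase controls had -0.27 and -0.06 over 13 genes. With the block 4 were lower and 3 higher in ESCs, and 4 lower and 3 higher in EBs. Cdca2, which brings protein phosphatase 1 to chromosomes, was called higher in KO ESCs also without the block. It stood at 833, 924 and 784 in WT and 1270.1, 1364 and 1480.3 in KO ESCs. The difference was 0.70 (standard error 0.13, adjusted p 0.046, and 0.118 to 0.179 with an A or B library left out). edgeR did not call it (0.058). The MuvB, B-Myb and FoxM1 regulators, which act on these promoters, had -0.09 and 0.08 over 13 genes, with none called by limma. With the block 4 were lower and 0 higher in ESCs, and 1 lower and 1 higher in EBs.

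G1 and S cyclins, kinases and inhibitors had 0.04 and -0.03 over 20 genes. With the block 3 were lower and 5 higher in ESCs, and 3 lower and 3 higher in EBs. Cdk6, a G1 kinase, was the 1 called also without the block. It stood at 93.0, 102 and 155 in WT ESCs, 267, 245 and 256 in KO ESCs, 85.0 and 75.8 in WT EBs and 364 and 316 in KO EBs. It rose in KO by 1.16 in ESCs (standard error 0.23, adjusted p 0.049) and 2.06 in EBs (standard error 0.28, adjusted p 0.017). With 1 library of replicates A and B left out the adjusted p was 0.118 to 0.194 in ESCs and 0.035 to 0.233 in EBs, where the call held in 3 of 8 cases, each without an ESC library. The list medians in ESCs thus ran from -0.42 for kinetochore genes to 0.04 for the G1 and S genes, beside -0.44 for the mitosis genes and -0.02 for all genes.

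The letters GGACT, a common core of the N6-methyladenosine site, were counted in the longest coding transcript of each gene, a count added after the data were seen. The members held a median of 1.04 per kilobase, against 1.06 over 13363 tested protein-coding genes. Cdc20, Cdc25c and Kif20a held none, and 7.51% of all these genes held none. The count is of letters and does not show methylation.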

How the data were processed

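The authors deposited normalized signal, namely gene read counts divided by 1 DESeq size factor per library. Per the submitters' processing notes, reads were handled with HTSeq 0.6.0, TopHat2 2.0.10, Bowtie, DESeq and CASAVA 1.8.2 on mm10. The annotation release and the strand setting are not given in the sources used here. Per the labels' protocols, the kit was TruSeq RNA v2, which is not stranded. Whole reads were recovered from the deposited signal for 100% of values, within a tolerance of 0.01. HTSeq's 5 summary lines did not enter library sizes or tests. Reads outside genes were 34.0% to 38.8%. Alignments that were not unique were 28.7% to 46.1%, with 36.9% and 36.9% in WT EBs and 46.1% and 44.5% in KO EBs. A further fibroblast library named in the series is not analysed here.

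After log2 transformation with a pseudocount of 1, the 15781 genes averaging at least 10 normalized counts were fitted in limma 3.58.1 (R 4.3.3), with trend and robust settings and a mean for each of the 4 groups. Contrasts were KO against WT within ESCs and within EBs, EBs against ESCs within each genotype, and the difference of KO effects (EBs minus ESCs). Tests were two-sided, p-values were adjusted by Benjamini-Hochberg over all genes tested, and the threshold was 0.05. The spread is shared by all groups, with 6 residual degrees of freedom, so replicate C widens the error of the EB comparisons too. Scripts were tested on simulated data with known changes.

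ESC replicate letters were taken to pair libraries: same-letter WT and KO deviations correlated over genes with r = 0.845, 0.828 and 0.858, above the bound of 0.1. Different letters A and B gave 0.809 and 0.812, so pairing rests mostly on C. EBs gave 0.369 from 2 pairs, too few to decide. For KO against WT and the difference of KO effects, the block fitted letters within ESCs and within EBs and left 3 residual degrees of freedom. For EBs against ESCs it took each letter as shared by ESCs and EBs, and left 4. That match of letters between ESCs and EBs was not checked, and this block moves the differences as well as their errors.

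The members, the other gene lists and the rules were chosen with earlier results of these data known. Alternatives were the block, leaving out replicate C or each library, fitting only the groups compared, a pseudocount of 5, no filter, TMM scaling, edgeR 4.0.16 and DESeq2 1.42.0 on the recovered reads. Values in every library are given for members called in any comparison, on chromosome 11, among the 6 highest per length, or among the 3 with the largest difference in each direction between genotypes. Ccnb1, Espl1, Anln and Nusap1 were added after their values were seen. Genes with over 10% of exon length under another gene are called uncertain. Of the other lists, at most 2 called genes per comparison and direction are named. Promoters are from RefSeq for GRCm38.p6, and gene models from GENCODE for GRCm38. Intervals of counting error were not computed, and floors of 3 reads cover counting error only. Protein features of the members, planned at first, were not computed.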

Additional observations from a re-analysis of the deposited data

Results flagged for a closer look

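For 3 mitosis genes the KO effect differed between EBs and ESCs in the test of that difference with the replicate letter as a block. That is 3 of 38, near the 7.79% of all genes called in the same test, so it is a description of these genes and not of the list. For Cdc20 the KO effect was -0.82 in ESCs and -1.40 in EBs, a difference of -0.59 on the log2 scale (limma adjusted p 0.029 with the block, and 1.000 without it). For Anln the effects were -0.21 and -0.85, a difference of -0.63 (adjusted p 0.043 with the block, and 0.478 without it). For Espl1 the effects were -0.46 and 0.16, a difference of 0.61 (adjusted p 0.032 with the block, and 0.596 without it). Without the replicate C libraries Espl1 and Anln passed (adjusted p 0.002 and 0.010) and Cdc20 did not (0.086).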

How the results depend on the processing

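The medians of the members kept their sign under all alternatives in KO against WT and in EBs against ESCs, and with 1 library left out they ran from -0.58 to -0.33 in KO against WT ESCs and from -0.49 to -0.40 in KO against WT EBs. That of the difference of KO effects ran from -0.15 to 0.18 and turned its sign for 5 of the 10 libraries. Counts of members called by limma depended on replicate C and on the block. With the replicate block they were 22, 16, 13, 14 and 3, and without both replicate C libraries 28, 24, 15, 14 and 9 (KO against WT ESCs, KO against WT EBs, WT EBs against ESCs, KO EBs against ESCs, and the difference of KO effects). In the same order, the block called 29.3%, 22.7%, 28.5%, 28.2% and 7.79% of all genes. Without replicate C the shares of all genes were 55.2%, 51.9%, 46.1%, 47.3% and 36.1%, so the calls rose over the whole table. Fitting only the groups compared gave 0 in ESCs and 24 in EBs (0% and 49.2% of all genes), and no filter gave 0 in ESCs (0.147%). DESeq2 gave 9, 6, 2 and 4 in the first 4 comparisons (12.4%, 9.83%, 9.66% and 8.99% of all genes). With 1 library left out the counts ran from 0 to 9, 0 to 5, 0 to 1 and 0 to 2, and were 0 in the difference of KO effects. Counts above 0 came without a replicate C library: 6 and 3 between genotypes in ESCs and EBs without that of WT (8.52% and 6.32% of all genes), and 9 and 5 without that of KO (13.8% and 7.36%). In KO against WT ESCs, values with 1 library left out ran from -0.78 to 0.20 for Birc5, -1.13 to 0.21 for Ccnb1, -1.33 to 0.056 for Mad2l1 and -0.00096 to 0.26 for Cenpe. Their signs turned without WT replicate C, and that of Birc5 also without KO replicate A (0.0016) or B (0.10). The cause was not tested. Over 68 single-gene results and 10 libraries left out in turn, 24 values newly passed, 8 lost the threshold, 6 turned sign and 642 kept both. No member fell under 38 reads in any library, and the part of depth in the values of replicate C was not tested.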
